A study of Mus musculus with 8 samples.

Results

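Chemokines are small secreted proteins that steer white blood cells, and their receptors are G protein-coupled receptors on the cells that follow them. Here 52 genes of this family were taken from mouse mammary tumour arrays by gene name alone, as the probes named for CC, CXC, XC and CX3C ligands and receptors with Pf4 and Il8rb, the older name of Cxcr2. They had 69 of the 41174 probes on the array. Probes whose tumour signal cleared the scanner's background test on 3 or more of the 8 arrays were kept. These were 61 probes of 48 genes, 32 ligands and 16 receptors, among 21565 genes measured. The 4 genes left out were Ccl22, an attractant of regulatory T cells, Ccl21c, a lymph node attractant, Cxcl15, a neutrophil attractant of the lung, and Cxcr2, the neutrophil receptor for the ELR CXC ligands. Ccl22 was well above background on 0 arrays, Ccl21c and each of the 2 Cxcr2 probes on 1 array (floxed tumour 2), and the brighter Cxcl15 probe on 2 arrays (floxed tumours 1 and 2). For a family named by sequence there is no marker to test. Luminal epithelial markers, which define the labelled tissue, were measured for 10 of 10 genes, all of them well above background on every array.

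Every tumour came from a virgin female mouse carrying MMTV-NIC, a transgene that makes an activated Neu (ErbB2) receptor and Cre recombinase from a single transcript in mammary epithelium, and was collected 6 weeks after palpation. The Stat3flx/flx/MMTV-NIC group (floxed) had 5 samples, each a single tumour, in which Cre can delete Stat3 in epithelium but not in the stroma or the infiltrating leukocytes. The Stat3wt/wt/MMTV-NIC group (wild-type) had 3 samples, each a pool of 5 tumours, so that its spread is between pools and not between tumours. The fit assumes a common variance for both kinds of sample. The permutation test used below likewise treats single tumours and pools as interchangeable. Ages of the mice were not used here. The comparison asks how loss of Stat3, a transcription factor downstream of cytokine receptors, goes with gene expression in ErbB2-driven mammary tumours. Each array held Cy5-labelled tumour RNA and Cy3-labelled universal mouse reference RNA, and a value below is the log2 ratio of tumour to reference, so levels of different genes cannot be set against each other. The median tumour signal per array was 642 to 891 over a background of 47 to 58, with 71.7% to 77.3% of probes clearing it. Precision is limited by how few arrays there are. Stat3 itself was -1.32, -1.33, -1.48, -1.22 and -1.12 in floxed tumours 1 to 5 and 0.12, 0.86 and 1.27 in wild-type pools 1 to 3, a difference of -2.05 (SE 0.24, limma adjusted p = 0.11), in the direction of the labels in 8 of 8 samples.

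As background, chemokines are sorted by the spacing of cysteines near the start of the protein, and by use. The ELR CXC ligands bind Cxcr2 and draw neutrophils, Cxcl9, Cxcl10 and Cxcl11 are induced by interferon gamma and bind Cxcr3 on activated T and natural killer cells, and the inflammatory CC ligands recruit monocytes, eosinophils and T cells through receptors such as Ccr1, Ccr2 and Ccr3. In mammary tumours chemokines are made by tumour cells, macrophages, fibroblasts and lymphocytes. In bulk tissue, more or fewer cells of a type and more or less RNA per cell cannot be told apart.

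No chemokine or receptor passed the test between genotypes. At an adjusted p under 0.05 (limma with Benjamini-Hochberg adjustment over all 21556 genes tested), 0 of 48 members were called, beside 1 gene of the whole array (0.00464%). Adjusted p over the members ran from 0.94 to 1. At an unadjusted p under 0.05, 2 of 48 members (4.17%) were called, Xcl1 and Ccl1, both higher in floxed tumours, where 4.98% of all genes were. With limma's trended robust variance the same counts were 0 and 1. The groups did not overlap for 1 member, Ccl1, or 2.08%, where this held for 3.21% of all genes. These shares lay near the background of the array. Ccl1 reached the 3 arrays of the filter only through the floxed tumours, where it was higher. With the filter on all 8 arrays, which left 40 members, the count at an unadjusted limma p under 0.05 was 1. That without overlap was then 0, beside 5.02% and 3.31% of all genes. The sign of the difference leaned more to one side, with 32 of 48 members (66.7%) higher in floxed tumours and 47.1% of all genes, and a median difference of 0.22 over the members and -0.01 over all genes.

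That lean came with 2 of the 5 floxed tumours. Set against the average wild-type pool, the median member was 0.63 in floxed tumour 1 and 0.71 in floxed tumour 2, and -0.16, -0.17 and -0.11 in floxed tumours 3, 4 and 5, beside 0.08, -0.18 and 0.05 in pools 1 to 3. The medians of all genes stayed between -0.05 and 0.07 in every sample. Floxed tumour 1 lay above all 3 pools for 32 members and floxed tumour 2 for 31, and floxed tumours 3, 4 and 5 did so for 11, 6 and 9. Floxed tumours 3, 4 and 5 lay below all 3 pools for 17, 17 and 15 members. The same counts were not made over all genes, so these have no background of the array beside them. Floxed tumour 2 held the highest of the 8 values for 22 members and floxed tumour 1 for 15, where they held the highest value of 14.6% and 20.7% of all genes. Without both of these tumours, a setting added after the data had been seen, 19 of 48 members were higher in floxed tumours and the median was -0.12. Of all genes, 44% were higher in that setting. Without floxed tumour 2 alone the median was 0.04 with 26 members higher, and without floxed tumour 1 alone it was 0.13 with 28 higher. Here 46.6% and 45.2% of all genes were higher. The spread was wider for this family than for all genes. The median SD over members was 0.58 between floxed tumours and 0.34 between pools, and 0.28 and 0.25 over all genes. This was not particular to chemokines. Between floxed tumours the median SD was 0.82 for eosinophil and mast cell, 0.65 for neutrophil and 0.55 for macrophage and monocyte markers. Adipocyte markers had 1.59, fibroblast markers 1.08, skeletal muscle markers 1.05 and the interferon-stimulated list 1.04. Less spread was seen for dendritic (0.49), basal epithelial (0.41), endothelial (0.40), luminal (0.38), T and natural killer (0.29), platelet (0.18) and B cell markers (0.12).

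**Figure D1:**
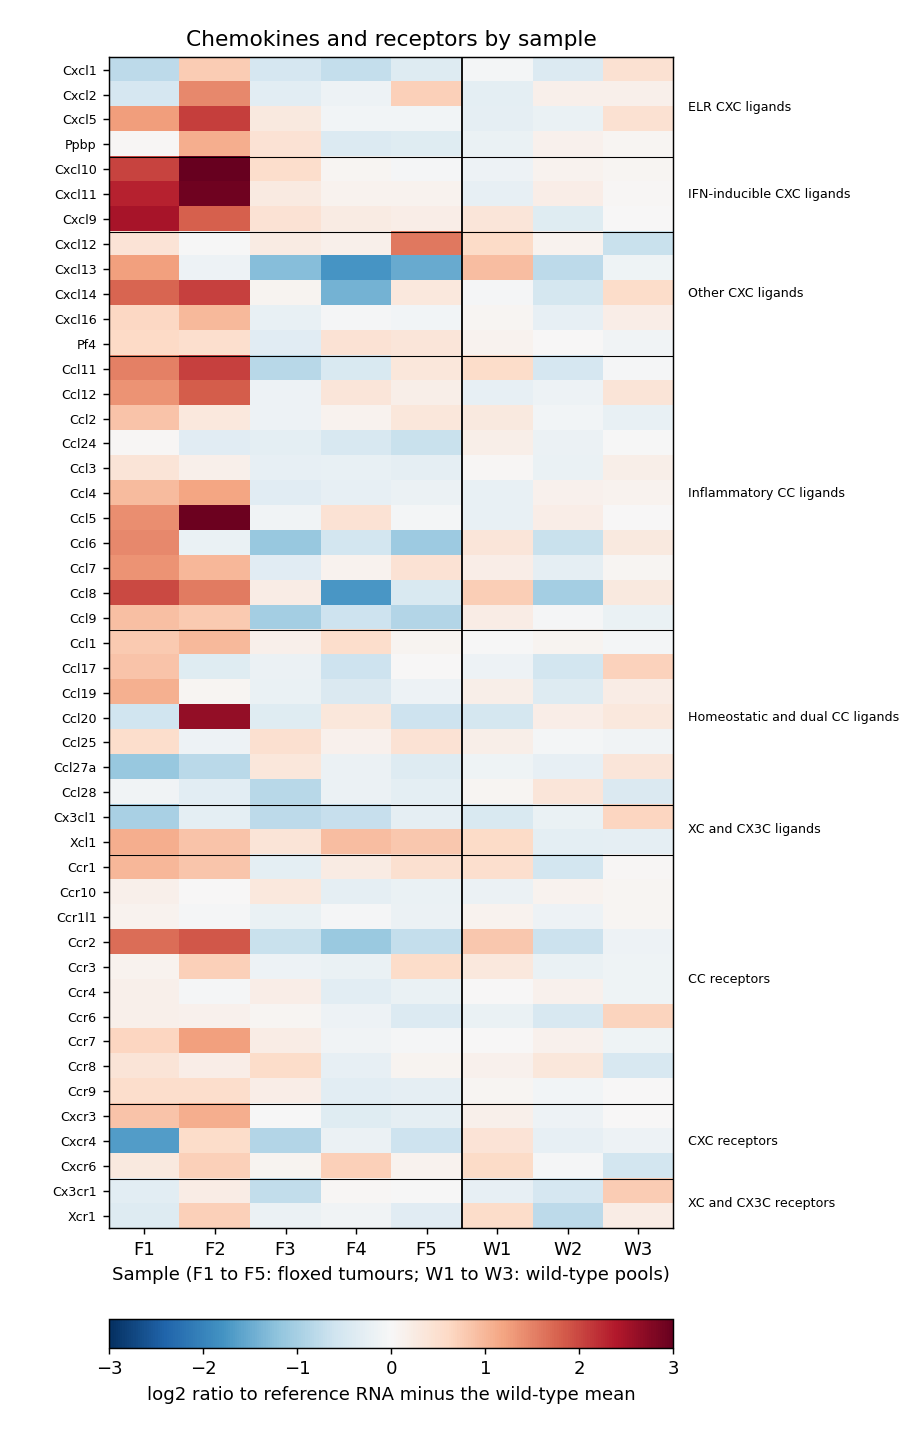
The log2 ratio to reference RNA minus the wild-type mean is coloured for the chemokine and receptor genes, all but 1 of the 48 (rows, by role), in 5 floxed tumours (F1 to F5) and 3 wild-type pools (W1 to W3), with the colour scale ending at -3 and 3. Red fills most rows of F1 and F2, which lay above all pools for 32 and 31 genes, and not those of F3 to F5, at 11, 6 and 9. These counts were not made over all genes.

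The 8 arrays lay on 3 slides, as the file headers name them, each with both genotypes. The median over members was 0.29 within slide 1 (floxed tumours 2 and 3 against pool 3), 0.67 within slide 2 (floxed tumour 1 against pool 2) and -0.15 within slide 3 (floxed tumours 4 and 5 against pool 1), so its sign did not hold in every slide. With slide as a fixed block it was 0.23. Cell type markers followed floxed tumours 1 and 2 in part. Their lists hold no chemokine, and each list is given per sample as the median over its genes of the log2 ratio minus the wild-type mean. Dendritic cell markers (10 of 11 measured) were 0.63 and 0.68 in floxed tumours 1 and 2, -0.08 to 0.10 in the other floxed tumours and -0.23 to 0.23 in the pools. The T and natural killer cell list (17 of 18 measured, Prf1 not kept) was 0.47 and 0.29 in floxed tumours 1 and 2, -0.02 to 0.12 in the others and -0.10 to 0.24 in the pools. Macrophage and monocyte markers (14 of 14) were 0.32 and 0.46 in floxed tumours 1 and 2, -0.65 to 0.11 in the others and -0.35 to 0.41 in the pools. Fibroblast markers (10 of 10) were 0.27 in floxed tumour 1 and 1.35 in floxed tumour 2, and adipocyte markers (6 of 7, Lep not kept) 2.02 and 0.55, beside pools at -0.22 to 0.30 and -0.90 to 0.91. In floxed tumour 1 the macrophage and fibroblast medians lay below the highest pool, and so did the adipocyte median in floxed tumour 2. Eosinophil and mast cell markers (7 of 10, Epx on 0 arrays) were -0.02 in floxed tumour 1, 1.05 in floxed tumour 2 and -0.31 to 0.39 in the pools. Endothelial markers (10 of 10) were 0.24 and 0.59 in floxed tumours 1 and 2, 0.40 in floxed tumour 5 and -0.37 to 0.50 in the pools. Luminal epithelial markers ran from -0.19 to 0.13 in floxed tumours and from -0.20 to 0.37 in pools. The part of these cells in the chemokine values was not tested.

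Cxcl9, Cxcl10 and Cxcl11 had the largest differences between genotypes of the family. Each binds Cxcr3, and their genes sit side by side on chromosome 5, with probes in mouse build mm7 at chr5:92310412-92310471 for Cxcl9, chr5:92334002-92334061 for Cxcl10 and chr5:92348344-92348495 for Cxcl11. Promoter windows of 250 bases before the start site were found for 36 of the 48 genes in RefSeq (GRCm38.p6), and those of Cxcl9 and Cxcl10 are shown because these genes were high in the same tumours. Capitals mark an interferon response element, GAAANNGAA, and in Cxcl10 also kappaB elements, searched on both strands. No marked elements of different kinds overlap, and the kappaB matches of Cxcl10 that share bases with each other are written as a single run. The Cxcl9 window is chr5:92328080-92328329 and the Cxcl10 window chr5:92348890-92349139, both on the minus strand.
Cxcl9: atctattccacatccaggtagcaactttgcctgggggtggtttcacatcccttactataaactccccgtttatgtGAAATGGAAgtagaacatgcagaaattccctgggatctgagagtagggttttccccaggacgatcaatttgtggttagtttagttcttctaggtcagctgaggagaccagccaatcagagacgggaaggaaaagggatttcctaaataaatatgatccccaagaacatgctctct
Cxcl10: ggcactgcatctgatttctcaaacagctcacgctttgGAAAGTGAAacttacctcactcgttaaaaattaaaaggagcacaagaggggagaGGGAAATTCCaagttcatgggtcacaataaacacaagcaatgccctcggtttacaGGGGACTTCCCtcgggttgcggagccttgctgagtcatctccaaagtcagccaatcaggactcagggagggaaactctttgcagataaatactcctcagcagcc
The interferon response element starts 175 bases before the start site in Cxcl9 and 213 bases before it in Cxcl10. It occurs in the windows of 7 of the 36 members, the others being Ccl1, Ccl3, Ccl19, Ccr2 and Cxcl14, and in a window of 8.18% of all 27025 genes. The kappaB element occurs in 9 of 36 members, Ccl1, Ccl9, Ccl20, Ccr1, Ccr3, Ccr6, Cxcl1, Cxcl2 and Cxcl10, and in a window of 8.23% of all genes. These matches describe the letters only.

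Cxcl10, an attractant of activated T cells, was 0.35, 1.46, -1.14, -1.61 and -1.70 in floxed tumours 1 to 5 and -1.84, -1.58 and -1.61 in pools 1 to 3. Floxed tumours 1 and 2 lay far above the rest and floxed tumours 4 and 5 within the range of the pools. Its mean was -0.53 ± 1.38 (SD, n = 5) against -1.68 ± 0.14 (SD, n = 3), a difference of 1.15 (SE 0.69), 2.21-fold, with a limma adjusted p of 0.94 and an exact permutation p of 0.196 (two-sided, all 56 splits, smallest possible p 0.0179).

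Cxcl11, which has the same receptor, was 2.23, 2.85, 0.18, 0.03 and 0.02 in floxed tumours 1 to 5 and -0.31, 0.12 and -0.04 in the pools. The same floxed tumours stood out, and the other values of both genotypes ran together. The difference was 1.14 (SE 0.68), 2.21-fold, with a limma adjusted p of 0.94 and an exact permutation p of 0.179.

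Cxcl9, the chemokine most closely tied to interferon gamma, was 5.96, 5.28, 3.92, 3.75 and 3.69 in floxed tumours 1 to 5 and 3.85, 3.13 and 3.51 in the pools. Here floxed tumour 1 was the highest, and pool 1 lay above floxed tumours 4 and 5. The difference was 1.03 (SE 0.53), 2.04-fold, with a limma adjusted p of 0.94 and an exact permutation p of 0.161. The reference was well above background at this probe on 3 of 8 arrays, so the ratios rest on a dim denominator.

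These were the 3 members past 2-fold. Without both floxed tumours 1 and 2 the difference was 0.19 for Cxcl10, 0.16 for Cxcl11 and 0.29 for Cxcl9. Without floxed tumour 2 alone it was 0.65 for Cxcl10 and 0.69 for Cxcl11, and without floxed tumour 1 alone 0.67 for Cxcl9. Within slides 1, 2 and 3 it was 1.77, 1.93 and 0.18 for Cxcl10, 1.55, 2.11 and 0.34 for Cxcl11, and 1.10, 2.83 and -0.13 for Cxcl9. A list of 24 interferon-stimulated genes had medians of 1.81, 0.95, -0.35, 0.96 and -0.19 in floxed tumours 1 to 5 and 0.09, 0.22 and -0.40 in the pools. Floxed tumour 4 was thus as high as floxed tumour 2 on that list, while the median of Cxcl9, Cxcl10 and Cxcl11 was 2.93 in floxed tumour 2 and 0.11 in floxed tumour 4.

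**Figure D2:**
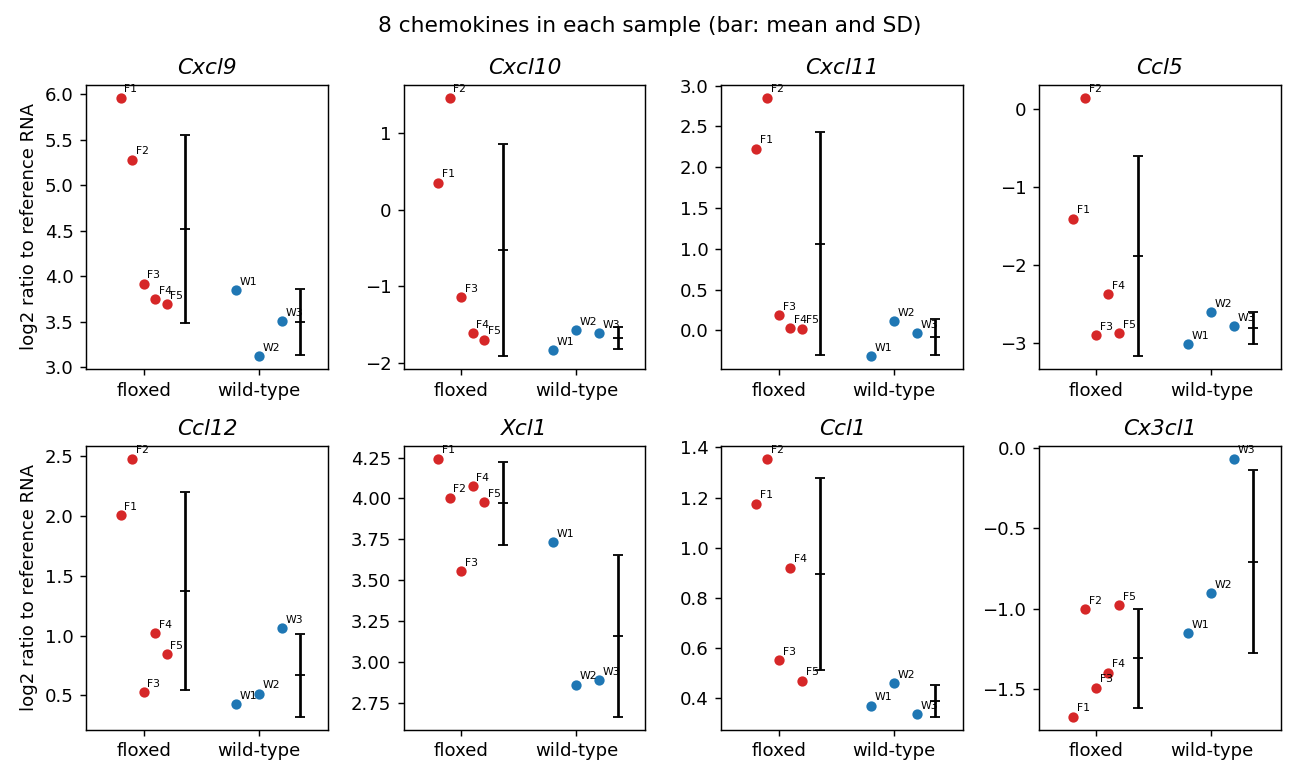
Points give the log2 ratio to reference RNA of 8 chemokines in each floxed tumour (F1 to F5, red) and wild-type pool (W1 to W3, blue), and bars the mean and SD of each genotype. F1 and F2 stand above the other samples for Cxcl9, Cxcl10, Cxcl11, Ccl5 and Ccl12, and Xcl1 is at 3.55 to 4.24 in the floxed tumours and 2.86 to 3.73 in the pools.

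Xcl1 (lymphotactin), made by natural killer and CD8 T cells and read by Xcr1 on cross-presenting dendritic cells, had the smallest p of the family. Its probe lies at chr1:164899708-164899767 (mm7). Xcl1 was 4.24, 4.0, 3.55, 4.07 and 3.98 in floxed tumours 1 to 5 and 3.73, 2.86 and 2.89 in the pools. The groups overlapped at a single point, with pool 1 above floxed tumour 3. The mean was 3.97 ± 0.25 (SD, n = 5) against 3.16 ± 0.50 (SD, n = 3), a difference of 0.81 (SE 0.24), with an unadjusted limma p of 0.00802, an adjusted p of 0.94 and an exact permutation p of 0.0357. It did not rest on floxed tumours 1 and 2, since without both it was 0.71, and leaving out 1 sample at a time gave 0.66 to 1.10. Within slides 1, 2 and 3 it was 0.89, 1.39 and 0.29. With Agilent's processed signals it was 0.52. The reference was well above background at this probe on 5 of 8 arrays, and the tumour channel alone gave a difference of 1.00. The X-C receptor Xcr1 was 0.90, 1.99, 1.11, 1.17 and 0.93 in floxed tumours and 1.83, 0.48 and 1.5 in pools, a difference of -0.05 (SE 0.34), with wide overlap.

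The T and natural killer cell list is given beside Xcl1, and none of its genes, like Xcl1 itself, passed the adjusted test. The 3 with the smallest p were Nkg7, Ncr1 and Il2rb. Ncr1, an activating receptor of natural killer cells, was 2.38, 2.22, 0.95, 1.81 and 1.45 in floxed tumours and 1.01, 0.77 and 0.50 in pools, a difference of 1.00 (SE 0.32). Like Xcl1, it overlapped where floxed tumour 3 lay below pool 1. Nkg7, a protein of cytotoxic granules, differed by 0.69 (SE 0.19) and Il2rb, the interleukin 2 receptor beta chain, by 0.53 (SE 0.17), with no overlap of the groups for either. Each of these had a limma adjusted p of 0.94. Klrk1 differed by 0.48 (SE 0.23), also with no overlap of the groups, but was well above background on 3 arrays only. Klrb1c differed by 0.34 (SE 0.23), and the granzymes Gzmb by 0.33 (SE 0.21) and Gzma by 0.16 (SE 0.21). The 2 genes of the list that were lower in floxed tumours were the T cell genes Cd8a (-0.33, SE 0.31) and Cd3e (-0.06, SE 0.16). Other T cell genes were higher, Lck by 0.47 (SE 0.27), Cd2 by 0.29 (SE 0.26), Cd8b1 by 0.18 (SE 0.30) and Cd3d by 0.15 (SE 0.25). Cd3g, Zap70, Cd4 and Cd5 differed by 0.03 to 0.08, so T cell genes as a set were not lower. Of the T and natural killer cell list, 15 of 17 genes were higher in floxed tumours, where 47.1% of all genes were. At an unadjusted limma p under 0.05, 3 of the 17 were called, all higher, and 4.98% of all genes. The groups did not overlap for 3 of the 17 and for 3.21% of all genes, and 0 passed the adjustment in limma. Klrk1 is among these 3. It only just met the filter of 3 arrays and was higher in floxed tumours, so its lack of overlap is no independent support. The part of natural killer cells in the Xcl1 value was not tested.

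Ccl1, a ligand of Ccr8 made by activated T and mast cells, was the member whose groups did not overlap. Its values were 1.18, 1.36, 0.55, 0.92 and 0.47 in floxed tumours 1 to 5 and 0.37, 0.46 and 0.34 in the pools. The gap was narrow, from 0.46 in pool 2 to 0.47 in floxed tumour 5. The difference was 0.51 (SE 0.22, 1.42-fold), with an unadjusted limma p of 0.0465, an adjusted p of 0.94 and an exact permutation p of 0.0536. The probe was well above background in 4 of 5 floxed tumours, all but floxed tumour 5, and in 1 of 3 pools, pool 2, and the reference was on 2 of 8 arrays. The level is therefore close to the detection limit, and the difference was 1.10 with Agilent's processed signals, which differ in background subtraction and dye normalization together. Ccl1 passed the filter of 3 arrays only through the floxed tumours, where it was higher, so its lack of overlap is no independent support. Its receptor Ccr8, well above background in 5 of 5 floxed tumours and 1 of 3 pools, differed by 0.19 (SE 0.23).

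Among the 4 measured ELR CXC ligands, 3 were higher in floxed tumours and 0 had an unadjusted limma p under 0.05. Cxcl5 was -4.26, -3.44, -5.20, -5.58 and -5.59 in floxed tumours and -5.77, -5.69 and -5.05 in pools. Floxed tumours 1 and 2 were above every other sample, and the difference was 0.69 (SE 0.49, limma adjusted p = 0.94), or 0.35 without floxed tumour 2. Cxcl1, a major neutrophil attractant, was -4.29, -2.75, -4.01, -4.22 and -3.90 in floxed tumours and -3.57, -3.92 and -3.04 in pools, so that floxed tumour 2 alone lay above the pools. Cxcl2, a close relative of Cxcl1, was 0.18 in floxed tumour 2 and -1.79 to -0.57 in the other 7 samples. Ppbp, a platelet chemokine, was 0.76 in floxed tumour 2 and -0.75 to 0.11 elsewhere. Floxed tumour 2 thus held the highest value of all 4, and the list median was 1.27 there and -0.28 to 0.30 in the other samples. Neutrophil markers (7 of 12 kept, among those not kept Ela2 and Camp on 0 arrays) were 0.70 in floxed tumour 2, but 0.79 in pool 3, whose ELR median was 0.30. Their part in the ELR values was not tested.

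Of the other CXC ligands, 4 of 5 were higher in floxed tumours, 0 of them at an unadjusted limma p under 0.05. Cxcl13, the B cell follicle attractant, was 2.45, 1.05, -0.06, -0.55 and -0.29 in floxed tumours and 2.14, 0.43 and 1.09 in pools. Floxed tumours 3, 4 and 5, where the probe was not well above background, were below every pool, and floxed tumour 1 was above them. The difference was -0.70 (SE 0.68, limma adjusted p = 0.942), but 2.02 within slide 2 and -2.56 within slide 3. It was -1.91 with Agilent's processed signals and -0.45 in the authors' deposited table. It was -1.18 without floxed tumour 1, -1.09 without pool 2, -0.43 without floxed tumour 4 and -0.23 without pool 1. B cell markers (9 of 12 kept, Pax5 and Blk on 0 arrays) ran from -0.11 to 0.01 in floxed tumours and from -0.07 to 0.06 in pools. Cxcl14, an epithelial and stromal chemokine, was 3.26, 3.57, 1.6, 0.09 and 1.83 against 1.48, 0.99 and 2.06. Floxed tumours 1 and 2 were again the highest, and the spread exceeded the difference of 0.56 (SE 0.72).

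The STAT element TTCNNNGAA, the sequence that STAT dimers recognise, is of interest for a Stat3 comparison and occurs in 4 of 36 members, Ccl17, Ccr1l1, Ccr6 and Cxcl14, and in a window of 8.13% of all genes. The Cxcl14 and Ccl17 windows are shown with it in capitals, and Cxcl14 also holds an interferon response element, in capitals nearer the start site, that does not overlap it. They lie at chr13:56296552-56296801 on the minus strand and chr8:94810203-94810452 on the plus strand (GRCm38.p6).
Cxcl14: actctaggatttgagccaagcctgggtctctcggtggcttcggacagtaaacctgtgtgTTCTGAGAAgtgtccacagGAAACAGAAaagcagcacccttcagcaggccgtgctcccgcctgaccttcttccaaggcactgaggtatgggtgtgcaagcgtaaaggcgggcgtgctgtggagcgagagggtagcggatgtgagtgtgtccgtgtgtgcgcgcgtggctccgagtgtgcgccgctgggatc
Ccl17: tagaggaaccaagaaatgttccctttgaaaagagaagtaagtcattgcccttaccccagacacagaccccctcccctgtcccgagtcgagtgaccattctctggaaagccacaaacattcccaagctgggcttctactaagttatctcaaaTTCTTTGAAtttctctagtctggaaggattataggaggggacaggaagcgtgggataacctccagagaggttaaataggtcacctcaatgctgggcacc
The differences of these 4 genes were 0.56 (SE 0.72) for Cxcl14, -0.06 (SE 0.36) for Ccl17, -0.07 (SE 0.13) for Ccr1l1 and -0.05 (SE 0.26) for Ccr6. Each was smaller than its standard error.

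Cxcl12, the stromal ligand of Cxcr4, was -3.24, -3.67, -3.40, -3.51 and -2.09 in floxed tumours and -3.09, -3.55 and -4.34 in pools. Floxed tumour 5 stood above the rest, and this sample also held the highest skeletal muscle marker median, 2.28 beside -0.23 to 0.50 in the other samples. Whether muscle RNA bears on the value was not tested. A further Cxcl12 probe gave a difference of 0.16 where the one used gave 0.47 (SE 0.39). Cxcl16, the transmembrane ligand of Cxcr6, was 2.76 and 3.11 in floxed tumours 1 and 2 and 1.90 to 2.34 in the other 6 samples. Its difference was 0.25 (SE 0.29), and 0.02 with a further probe. Pf4, a platelet and macrophage chemokine, was -2.75 to -2.53 in floxed tumours 1, 2, 4 and 5, -3.46 in floxed tumour 3 and -3.23 to -3.01 in the pools, a difference of 0.31 (SE 0.22).

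Among the 11 measured inflammatory CC ligands, 7 were higher in floxed tumours and 4 lower, 0 with an unadjusted limma p under 0.05. Their median was 1.34, 0.99, -0.30, -0.25 and -0.17 in floxed tumours 1 to 5 and 0.21, -0.17 and 0.06 in the pools. Without both floxed tumours 1 and 2 the median difference was -0.26 in place of 0.29.

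Ccl5 (Rantes), made by T and natural killer cells and macrophages, was -1.41, 0.14, -2.90, -2.37 and -2.87 in floxed tumours and -3.01, -2.60 and -2.78 in pools. Floxed tumours 1, 2 and 4 lay above every pool. The difference was 0.92 (SE 0.64, 1.89-fold, limma adjusted p = 0.94), 0.41 without floxed tumour 2 alone and 0.09 without both floxed tumours 1 and 2. A further probe gave 0.78. Ccl12, a monocyte attractant of the Ccl2 family, was 2.01, 2.48, 0.53, 1.02 and 0.84 in floxed tumours and 0.42, 0.51 and 1.06 in pools. The first pair stood apart and the rest overlapped, with a difference of 0.71 (SE 0.44, limma adjusted p = 0.94) and of 0.43 without floxed tumour 2 alone and 0.13 without the pair. Ccl7, a close relative, was -1.96 and -2.32 in floxed tumours 1 and 2 and -3.67 to -2.89 in the other samples, and Ccl2 ran from -3.40 to -2.39 in floxed tumours and from -3.48 to -2.95 in pools.

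Ccl8, a monocyte attractant and one of the most variable members, was 5.32, 4.91, 3.55, 1.59 and 2.88 in floxed tumours and 4.07, 2.31 and 3.64 in pools. The eosinophil attractant Ccl11 was 3.74 and 4.27 in floxed tumours 1 and 2, 1.40 to 2.57 in floxed tumours 3 to 5 and 1.72 to 2.77 in pools. Ccl9, a macrophage chemokine of rodents, was -1.07 and -1.18 in floxed tumours 1 and 2, above the pools at -2.17 to -1.76, and -2.99 to -2.60 in floxed tumours 3 to 5, below them. Floxed tumours thus lay on both sides of the pools for Ccl9, whose difference was -0.16 (SE 0.48). Ccl6, also of macrophages, was 5.82, 4.19, 3.24, 3.85 and 3.30 in floxed tumours 1 to 5, beside 3.72 to 4.76 in pools. Ccl4, an attractant of monocytes and T cells, was -2.62 and -2.38 in floxed tumours 1 and 2 and -3.91 to -3.44 in the other samples, while its neighbour Ccl3 ran from -3.49 to -2.85 in floxed tumours and -3.42 to -3.07 in pools.

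Ccl24 (eotaxin 2), an eosinophil attractant of macrophages, went the other way. It was -3.61, -4.00, -3.95, -4.13 and -4.33 in floxed tumours and -3.47, -3.82 and -3.67 in pools, so that 4 of 5 floxed tumours lay below every pool. The difference was -0.35 (SE 0.18), with an unadjusted limma p of 0.084, an adjusted p of 0.94 and an exact permutation p of 0.125. It was -0.48 without both floxed tumours 1 and 2. Within slides 1, 2 and 3 it was -0.31, 0.21 and -0.76.

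Of the 7 homeostatic and dual CC ligands, 4 were higher and 3 lower, and Ccl1, described above, was the member with an unadjusted limma p under 0.05. Ccl28, a mucosal epithelial chemokine of the mammary gland, was 1.00, 0.81, 0.29, 0.94 and 0.82 in floxed tumours and 1.18, 1.48 and 0.69 in pools, a difference of -0.35 (SE 0.22, limma adjusted p = 0.94). It was -0.16 without pool 2, -0.22 without floxed tumour 3, -0.56 without pool 3 and -0.56 in the authors' deposited table. The reference was well above background at this probe on 1 of 8 arrays. Ccl25, an attractant of Ccr9 cells, was -0.62, -1.30, -0.69, -1.03 and -0.73 in floxed tumours and -0.98, -1.22 and -1.26 in pools. Floxed tumours 1, 3 and 5 were above the pools, with a difference of 0.28 (SE 0.19, limma adjusted p = 0.94). Ccl27a, a skin epithelial chemokine, was 0.68 and 1.00 in floxed tumours 1 and 2, below the 1.43 to 2.19 of the other 6 samples. Its difference was -0.43 (SE 0.32).

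Ccl19, the Ccr7 ligand of lymphoid stroma, was 1.71 in floxed tumour 1 and 0.23 to 0.86 elsewhere, and Ccl17, a ligand of Ccr4, was highest in the same tumour at -0.09, with pools at -1.48 to -0.25. Ccl20, the ligand of Ccr6, was 2.26 in floxed tumour 2 and -1.02 to -0.05 in the other samples, and was well above background in 2 of 5 floxed tumours, numbers 2 and 4, and 2 of 3 pools. Floxed tumours 1 and 2 thus shared high values of the Cxcr3 ligands but not of Ccl19 or Ccl20.

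Cx3cl1 (fractalkine), a membrane-bound chemokine of epithelium and endothelium, had the lowest p among members lower in floxed tumours. It was -1.67, -1.0, -1.49, -1.40 and -0.98 in floxed tumours and -1.16, -0.91 and -0.06 in pools. Floxed tumours 2 and 5 lay between pools 1 and 2, and the other 3 lay below every pool. The difference was -0.60 (SE 0.27), with an unadjusted limma p of 0.0542, an adjusted p of 0.94 and an exact permutation p of 0.0893. Leaving out single samples gave -0.83 to -0.28, the latter without pool 3, and it was -0.04 within slide 3. A further probe gave -0.24. The receptor Cx3cr1, of macrophages and natural killer cells, was 3.99, 4.53, 3.57, 4.34 and 4.30 against 4.06, 3.80 and 5.08, a difference of -0.17 (SE 0.32) whose sign was turned by another probe of the gene (0.20), by the mean of its probes, by the tumour channel alone and in the authors' deposited table.

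Of the 11 CC receptors, 8 were higher and 3 lower, 0 with an unadjusted limma p under 0.05. Ccr1, a receptor of monocytes and neutrophils, was 1.98, 1.82, 0.69, 1.22 and 1.46 in floxed tumours and 1.49, 0.44 and 1.03 in pools. The difference was 0.45 (SE 0.33, limma adjusted p = 0.94), and the reference was well above background at Ccr1 and at Ccr2 on 0 arrays. The Ccr1 difference was 0.18 without pool 2, 0.70 without pool 1 and 0.99 with Agilent's processed signals. Ccr2, the receptor of inflammatory monocytes for Ccl2, Ccl7 and Ccl12, was 4.09, 4.29, 1.74, 1.30 and 1.71 in floxed tumours and 3.22, 1.78 and 2.26 in pools. Floxed tumours 1 and 2 lay above the pools and floxed tumours 3 to 5 below them, leaving a mean difference of 0.21 (SE 0.75). Ccr7, which guides dendritic cells and naive T cells to lymph nodes, was -0.09 and 0.49 in floxed tumours 1 and 2 and -0.86 to -0.51 elsewhere, a difference of 0.39 (SE 0.30).

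The other CC receptors moved less. Ccr3, of eosinophils, ran from 0.33 to 1.23 in floxed tumours and 0.33 to 0.85 in pools, and Ccr9, a gut-homing receptor, from -2.03 to -1.18 and from -1.80 to -1.65. Ccr10, a skin-homing receptor, had the smallest difference of the family, 0.00 (SE 0.17). Ccr4 (-0.04, SE 0.16) was well above background in 3 of 5 floxed tumours and 1 of 3 pools, and Ccr1l1 in 2 of 5 and 3 of 3.

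**Figure D3:**
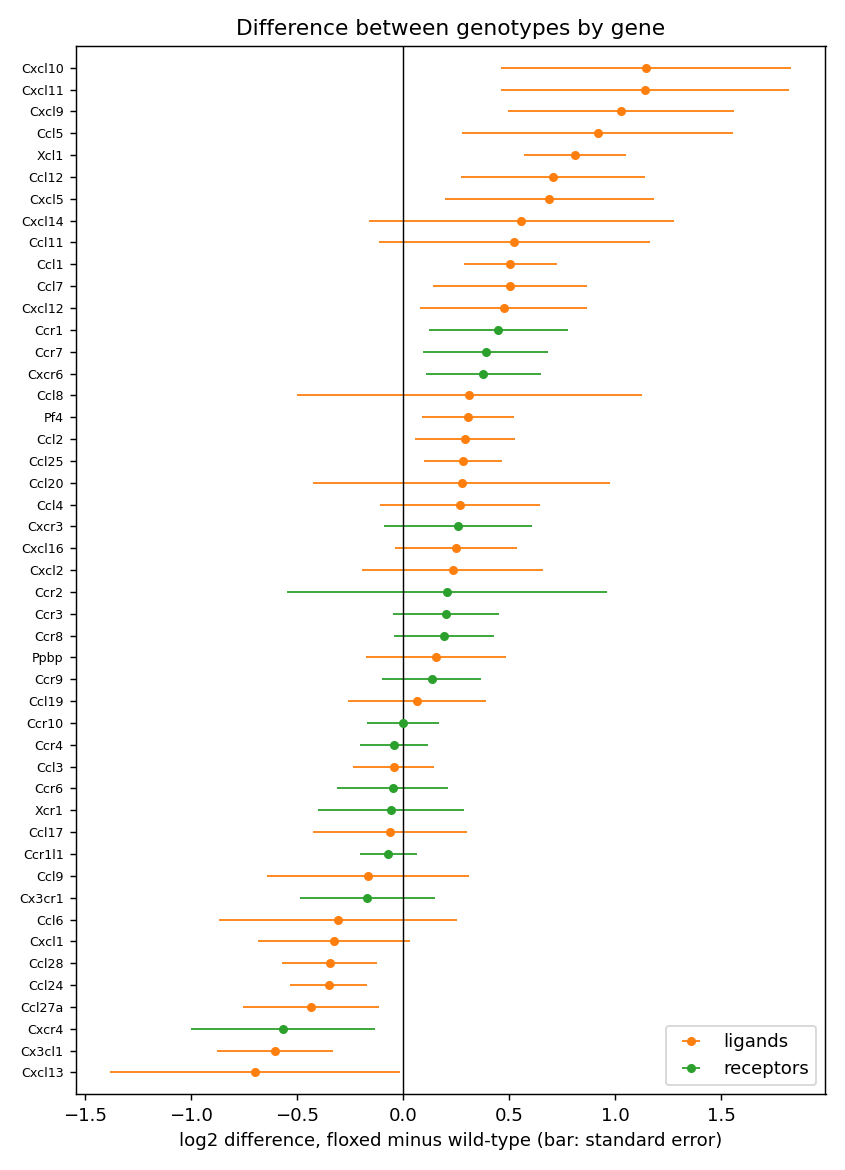
Each point is the log2 difference, floxed minus wild-type, of a chemokine (orange) or receptor (green), for all but 1 of the 48 genes, and each bar its standard error in the limma fit, in order of size from Cxcl13 at -0.70 to Cxcl10 at 1.15. The largest positive differences have wide bars, and Xcl1, at 0.81, a short one (0.24).

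Of the CXC receptors, Cxcr3, on activated T and natural killer cells, was 0.48, 0.73, -0.39, -0.72 and -0.64 in floxed tumours and -0.21, -0.53 and -0.37 in pools. Like its ligands Cxcl9, Cxcl10 and Cxcl11, it was highest in floxed tumours 1 and 2, but floxed tumours 4 and 5 lay below the pools, leaving a difference of 0.26 (SE 0.35). Cxcr4, the receptor of Cxcl12, was -1.0, 1.21, -0.21, 0.49 and 0.04 in floxed tumours and 1.08, 0.42 and 0.51 in pools. Floxed tumours 1 and 2 held its lowest and highest values, and the difference was -0.56 (SE 0.43, limma adjusted p = 0.94), with -0.42 for a further probe. It was -0.29 without floxed tumour 1 and -0.36 without pool 1. Cxcr6, of T and natural killer cells, was 0.16, 0.58, -0.05, 0.58 and -0.02 against 0.45, -0.17 and -0.67, a difference of 0.38 (SE 0.27).

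**Figure D4:**
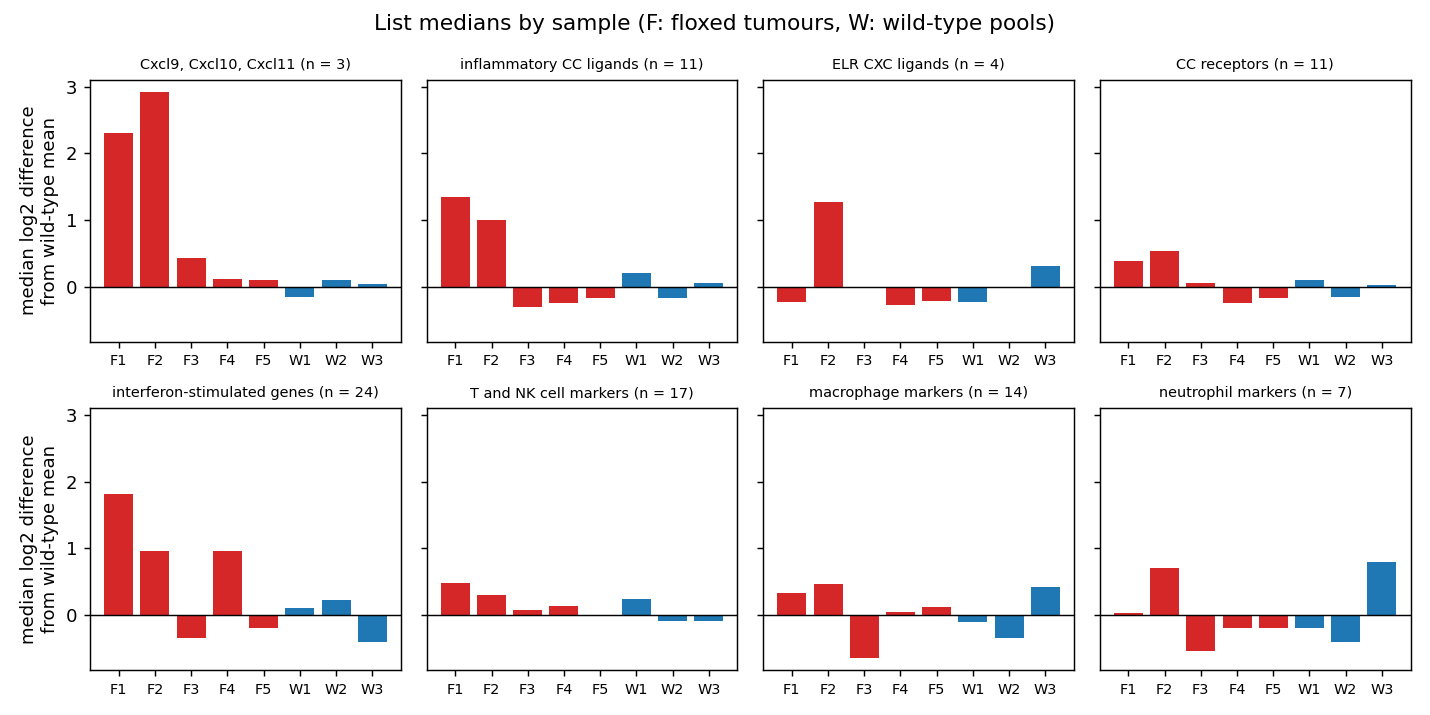
Bars give the median over each list of the log2 ratio minus the wild-type mean, in floxed tumours (F1 to F5, red) and wild-type pools (W1 to W3, blue), for 4 chemokine and receptor lists and 4 lists without members. The Cxcl9, Cxcl10 and Cxcl11 median is 2.31 in F1, 2.93 in F2 and 0.43 or less elsewhere, the interferon-stimulated list is also high in F4 (0.96), and the ELR median stands out in F2 alone (1.27).

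Other genes of the pathway were taken from lists that do not hold the members. Of the related ligands and atypical receptors, 13 of 15 were measured, 8 higher and 5 lower in floxed tumours, with a median of 0.15 and 0 at an unadjusted limma p under 0.05. The smallest p belonged to Dpp4, a protease that trims chemokines, at -0.92 (SE 0.44), and to the cytokine Mif, at 0.27 (SE 0.14). Of the genes that carry the signal below the receptor, 24 of 24 were measured, 16 higher and 8 lower, with a median of 0.09 and again 0 at that threshold. Rac1, the small GTPase of cell migration, differed by 0.38 (SE 0.17) and Dock2, its activator in leukocytes, by 0.48 (SE 0.23). Of the cytokines and transcription factors that induce chemokines, 20 of 22 were measured, 15 higher and 5 lower, with a median of 0.10. Among these, 3 had an unadjusted limma p under 0.05, all higher, where 4.98% of all genes did and 47.1% of all genes were higher. The 2 with the smallest p were Spi1, the myeloid factor PU.1 (0.82, SE 0.31), and Ltb, lymphotoxin beta (0.67, SE 0.28, no overlap of the groups). Each of these named genes had a limma adjusted p of 0.94, and 0 genes of the lists passed.

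For 12 members more than 1 probe was kept, and 2 of these had probes of opposite sign, Cx3cr1 and Ccl19 (0.07 and -0.03). Between the 60-base probes of different members the longest shared run was 13 bases, between Ccl12 and Ccl8, over 1816 pairs.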

How the data were processed

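Per the file headers, the deposited spot intensity values came from Agilent Feature Extraction 9.5.3.1 on array design 014868, with mm7 probe coordinates. Mean and background intensity values were deposited unnormalized, per the file headers, and the processed ones background-subtracted and dye-normalized. The table of values that the authors deposited is in log2 of tumour over reference: its r with the values used here, 0.989 to 0.994, gives the direction and its slope on them, 0.973 to 1.25, the approximate scale; the submitters' processing notes name RMA, but normalization and centring stay unknown. Its column medians were 0.0129, 0.00605, 0.00827, 0.0048, 0.00452 (floxed tumours 1 to 5), 0.00766, 0.0064 and 0.00681 (pools 1 to 3). It served as an alternative.

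In limma 3.58.1 (R 4.3.3), background was corrected by normexp (offset 50) and ratios by loess within arrays. Control spots had weight 0 and spots with outlier flags were left out. A gene took its brightest kept probe. Symbols came from RefSeq accessions (22951 probes), identical symbols (6659) or the file. Genotypes were compared by lmFit and eBayes, tested on simulated data. Members named were those with an unadjusted p under 0.05 or no overlap, filled to 10 by p, and the largest difference of each role. Members and lists were chosen with earlier results of these data known, and other members were described after their values were seen. Tumours were separate animals, per the labels. No dyes were swapped. A few single genes are not reported here, and they stay in the counts and medians.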

Additional observations from a re-analysis of the deposited data

Results flagged for a closer look

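In 7 of the 58 sets of 5 floxed values tested, 1 tumour stood apart from the other 4 by Dixon's criterion, where chance gives about 2.9. Floxed tumour 2 was high for Cxcl1 (-2.75, others -4.29 to -3.90), Xcr1 (1.99, others 0.90 to 1.17) and the median of the ELR CXC ligands (1.27, others -0.28 to -0.01). Floxed tumour 1 was high for the median of the homeostatic and dual CC ligands (0.53, others -0.19 to -0.14). Floxed tumour 3 was low for Pf4 (-3.46, others -2.75 to -2.53) and Ccl28 (0.29, others 0.81 to 1.00), and floxed tumour 5 was high for Cxcl12 (-2.09, others -3.67 to -3.24). Groups of 3 pools were not tested.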

How the results depend on the processing

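No paired analysis was possible because the floxed tumours carry animal numbers and share no replicate number with the pools. The count of members past an adjusted p of 0.05 was 0 in all 20 alternatives. The count at an unadjusted p under 0.05, 2 as reported, was 1 in the authors' deposited table and with the filter on all 8 arrays. It was also 1 with trended robust variance and with a random block for slide. With Agilent's processed signals and with the mean of probes it was 3, beside 4.95% and 4.84% of all genes. It was 5 without both floxed tumours 1 and 2, where 7.26% of all genes were called. Leaving out single samples gave 1 to 5, with 2.2% to 8.83% of all genes, and the lowest adjusted p of any named member was 0.545. The count without overlap, 1 as reported, was 2 with the tumour channel alone, in the authors' table and with the mean of probes, 0 with the filter on all 8 arrays, 6 without both floxed tumours 1 and 2 (12.8% of all genes) and 1 to 5 without single samples (4.29% to 13% of all genes). The count of members higher was 15 within slide 3, 19 without both floxed tumours 1 and 2 (44% of all genes), and 26 to 36 without single samples (44.4% to 52.8% of all genes). The median difference was 0.67 within slide 2 and 0.04 to 0.31 without single samples. Cx3cr1 turned sign, to 0.0896 with the tumour channel alone, 0.00823 in the authors' table, 0.0149 with the mean of probes and 0.22 without wild-type replicate 3, with -0.42 to 0.22 over single samples left out; the cause was not tested. The other 313 values of named members in the 20 alternatives fitted kept their direction and side of the threshold. Within slides, which allow no test, Ccl24 (0.21) and Cxcl13 (2.02) turned sign in slide 2, Cxcl9 (-0.13) and Ccr1 (-0.14) in slide 3, and Cx3cr1 in slides 2 (0.19) and 3 (0.27). Members near background, Ccl1 and Cxcl13 among them, are the least certain.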
